A study of Homo sapiens with 4 samples.

Results

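Small Cajal body RNAs (SCARNA genes) were examined in HUT78, a long-established human cell line derived from cutaneous T-cell lymphoma, after exposure to the compound CSH71 and in its absence. The members were all genes whose symbol in the platform annotation starts with SCARNA, and they numbered 23 of 14884 named genes. All 23 matched a gene of the RefSeq table by identifier, and each was read by 1 probe set. That table lists 29 SCARNA genes, and the remainder were not analysed here. Symbols starting with SNORA, the box H/ACA RNAs of the nucleolus, numbered 0 in the annotation used here, so box H/ACA RNAs enter below through the Cajal body members of that type. 

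Each of 4 single-sample Affymetrix whole-transcript arrays measured total RNA of 1 sample. The treated group comprised 2 samples exposed to CSH71 at 250 nM for 30 h, and the other group comprised 2 untreated samples of the same line. All were grown in serum-containing medium, and the labels name no vehicle for the untreated samples. According to the series, CSH71 targets the lipid-binding domain of the mitogen-activated protein kinase p38γ, and the question is which transcripts change downstream of it.

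Small Cajal body RNAs are short guide RNAs that concentrate in Cajal bodies, the nuclear compartments where spliceosomal small nuclear RNAs are modified. Members with an H/ACA box fold around the proteins dyskerin, NHP2, NOP10 and GAR1 and direct the conversion of uridine to pseudouridine. Members with a C/D box bind fibrillarin and direct methylation of the ribose, and mixed members carry both kinds of domain. Most are cut out of introns of other genes, so their level depends on the transcription of that gene and on processing and stability of the small RNA.

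The values used were probe set intensities on a linear scale, whose array medians lay between 71.5 and 81.1. They carry no detection call or background level, and probe sets differ in response, so the intensity of one member is not set against that of another. Of 12 T-cell markers, 7 were measured, among them LCK, a kinase of T-cell receptor signalling (1107 ± 70.3 with CSH71 and 1080 ± 86.4 untreated, mean ± SD, n = 2 each) and ZAP70, another such kinase (1703 ± 178 with CSH71 and 1724 ± 22.0 untreated). CD247, the zeta chain of the receptor, was lower without overlap (-0.30 ± 0.18) and CD5, a T-cell surface protein, higher without overlap (0.21 ± 0.17), neither past the test. CD2 read 73.0 with CSH71 and 79.2 untreated, and CD28 86.0 with CSH71 and 75.1 untreated. Among markers of other cell types, 2 of 6 for B cells, 5 of 6 for monocytes and 4 of 7 for epithelium and fibroblasts were measured, and limma called 0 of these (0 at an unadjusted p under 0.05). Some were bright in both groups: EPCAM, an epithelial adhesion molecule, read 2056 with CSH71 and 2062 untreated. The keratin gene KRT18 read 513 with CSH71 and 527 untreated, and BLK, a B-lineage kinase, 264 with CSH71 and 333 untreated. Others had lower readings: the keratin gene KRT8 had 104 with CSH71 and 105 untreated. DCN, listed for fibroblasts, had 34.5 with CSH71 and 21.1 untreated, and the monocyte marker LYZ 36.0 with CSH71 and 27.65 untreated. BLK was lower and DCN higher without overlap. Nothing in the labels ties the replicates to separate cultures, so the p-values reflect the spread among these samples alone, and that spread may be technical. The groups were compared with limma on log2(intensity + 16), adjusted over all genes, and calls were made below an adjusted p of 0.05. A difference on that scale understates the change of dim probe sets.

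SCARNA3, an H/ACA member also named HBI-100, was lower in CSH71-treated cells, and the other 22 members did not pass the test. SCARNA3 had intensities of 238 and 190.3 on the 2 CSH71 arrays and 982 and 855 on the 2 untreated arrays. The lowest untreated value was 3.59 times the highest CSH71 value, so the groups lay far apart. The log2 difference was -2.03 ± 0.19 (SE), with a 95% interval of -2.48 to -1.57 and a limma adjusted p of 0.0386. Without the added constant the log2 difference was -2.11, and the mean intensity fell by 76.7%. On the log2(intensity + 16) scale SCARNA3 had the most negative difference of all genes, while with a constant of 1 it had 3 genes below it. It was the single gene called lower, where genes called lower made up 0.00672% of all genes tested genes called higher 0.0403% and genes called either way 0.0470%. In RNA from whole cells, fewer cells containing the RNA and less RNA per cell cannot be told apart. Whether the SCARNA3 probe set read the small RNA alone or also a longer transcript over the same span was not tested.

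**Figure D1:**
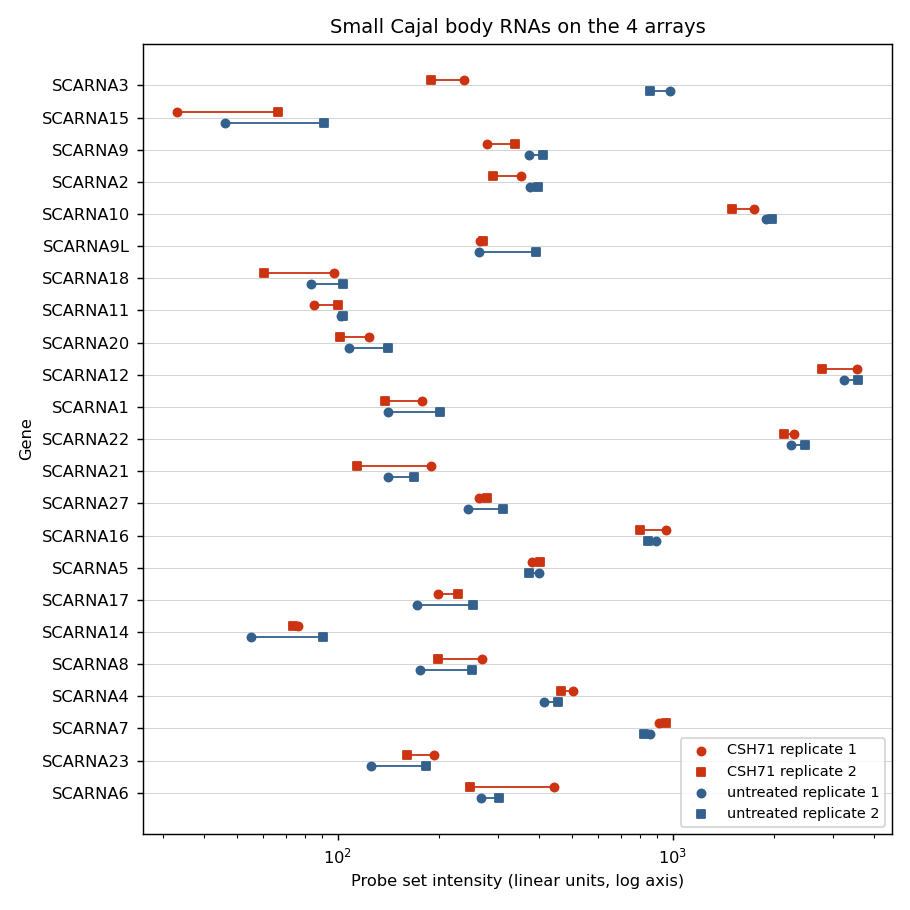
Intensity of the 23 small Cajal body RNAs on each array, on a log axis, ordered by the difference between groups; red is CSH71, blue is untreated, circles are replicate 1 and squares replicate 2. SCARNA3, at the top, has CSH71 values of 238 and 190.3 left of untreated values of 982 and 855, while for most other members the arrays of the groups lie among each other.

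The size of the SCARNA3 difference moved little under the settings that could change it, and the SCARNA3 call did not hold throughout. Over 15 alternatives the log2 difference ran from -2.18 to -1.82. The smallest adjusted p-values came with an intensity trend in the variance prior, median centring and the replicate block. In those fits the spread of SCARNA3 itself was not used. The limma adjusted p ran from 1.97e-26 to 0.478 and was under the threshold in 9 of the 15. Leaving out untreated replicate 1 gave -1.93 with an adjusted p of 0.478, and leaving out untreated replicate 2 gave -2.12 with 0.380, so the call was not made without either untreated array. Blocks, variance priors, the choice of probe sets and removal of dim genes could not move the difference, and left it at -2.03. Their equal values therefore say nothing about its stability. The plot of SCARNA3 by setting shows these positions and a changing call.

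**Figure D2:**
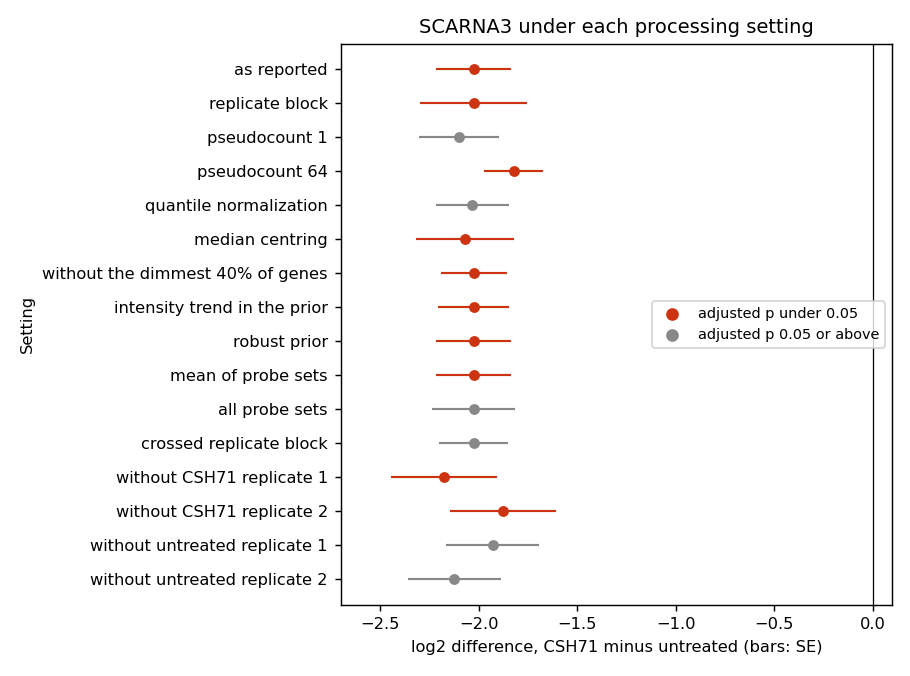
Log2 difference of SCARNA3, CSH71 minus untreated, under the reported setting and 15 alternatives; bars are the SE and red marks an adjusted p under 0.05. All points lie between -2.18 and -1.82, and 6 of the alternatives are grey.

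The class as a whole showed no shift of that size. Of the 23 members 1 was called, lower, and 0 were called higher; 1 had an unadjusted p under 0.05, against 5.10% of all genes. The median log2 difference was -0.09 over the 23 members and -0.07 over the 22 without SCARNA3, beside -0.01 over all genes. Over the genes brighter than the median gene, as most members were, it was -0.03. Differences were negative for 14 members and positive for 9. The 22 other members ran from -0.36 (SCARNA15) to 0.21 (SCARNA6), each with a limma adjusted p of 0.999. Their 95% intervals lay within a 2-fold change in either direction for 21 of the 22. The exception was SCARNA15, whose interval reached -1.15, so for that member a 2-fold decrease was not outside the interval.

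**Figure D3:**
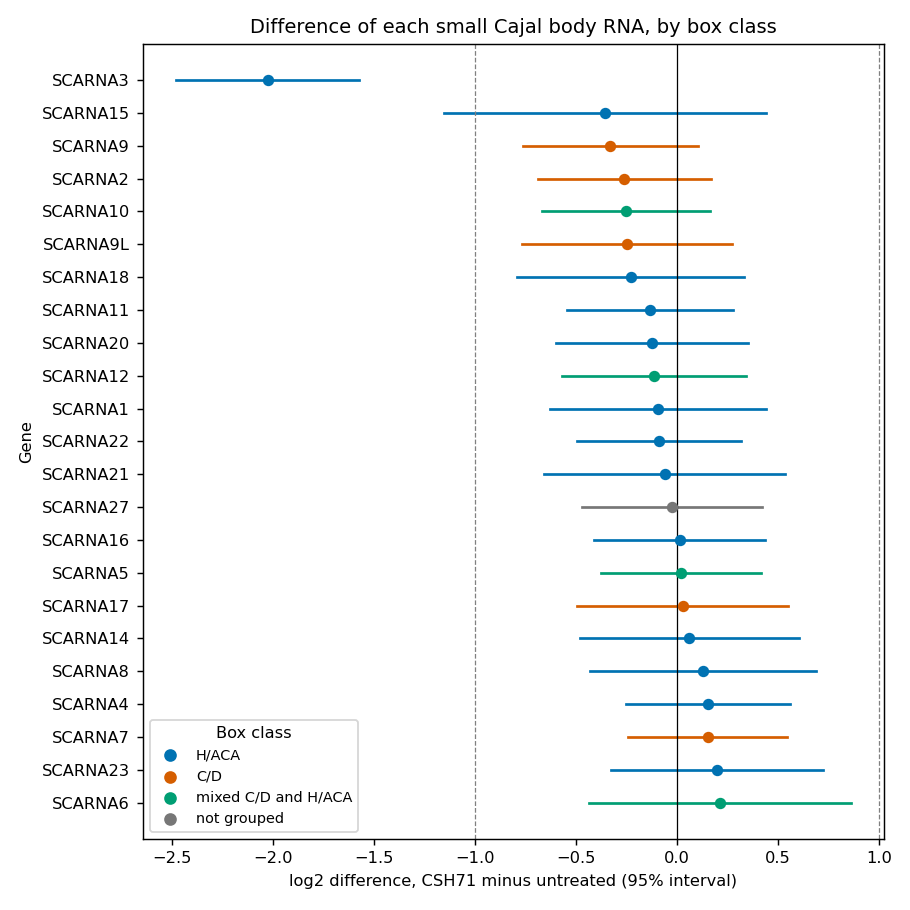
Log2 difference, CSH71 minus untreated, of each member with its 95% interval, coloured by box class; dashed lines mark a 2-fold change. SCARNA3 lies at -2.03, and the other 22 points lie between -0.36 and 0.21.

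Arrays of the groups did not overlap for 7 members, 5 lower and 2 higher with CSH71. Among all genes 16.6% were lower and 15.0% higher without overlap, so 7 of 23 is near the background of 31.6%. The difference exceeded the gap between replicates in both groups for 5 members, namely SCARNA3, SCARNA9, SCARNA10, SCARNA4 and SCARNA7, against a background of 20.6% of genes.

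Among the 13 members with an H/ACA box alone, 8 had a negative and 5 a positive difference, with a median of -0.09. SCARNA4, also named ACA26, a guide for the U2 spliceosomal RNA, had 504 and 464 on the CSH71 arrays and 414 and 455 on the untreated arrays. Both CSH71 values lay above both untreated values, by 0.15 ± 0.17 on the log2 scale. SCARNA22, also named ACA11 and known for its high level in multiple myeloma with a translocation at NSD2, had 2296 and 2156 with CSH71 and 2251 and 2488 untreated. Its groups overlapped, with a difference of -0.09 ± 0.17 and an interval of -0.49 to 0.32. SCARNA16, also named ACA47, had 955 and 801 with CSH71 and 893 and 841 untreated. There the CSH71 arrays lay on either side of the untreated ones, and the difference was 0.01 ± 0.18.

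SCARNA15, also named ACA45, is known as a source of a microRNA-like fragment. It had 33.0 and 66.5 on the CSH71 arrays and 46.0 and 91.2 on the untreated arrays, with a difference of -0.36 ± 0.34. In each group replicate 2 was higher than replicate 1, by 0.75 with CSH71 and 0.79 untreated on the log2 scale, so the gap between replicates was larger than that between groups. SCARNA11, also named ACA57, had 84.8 and 100.1 with CSH71 and 102 and 103 untreated, and its groups did not overlap by a narrow margin (-0.13 ± 0.17).

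The remaining H/ACA members had overlapping groups. SCARNA1 and SCARNA8, guides for U2, had differences of -0.10 ± 0.22 and 0.13 ± 0.24. SCARNA8 had 270.4 and 199 with CSH71 and 176 and 251 untreated, so each group spanned most of the range of the other. SCARNA18 was at -0.23 ± 0.24, SCARNA20 at -0.12 ± 0.20, SCARNA21 at -0.06 ± 0.25, SCARNA14 at 0.06 ± 0.23 and SCARNA23 at 0.20 ± 0.22. SCARNA27, which was not put in a box class, was at -0.02 ± 0.19.

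The 4 mixed members had a median of -0.05, with 2 negative and 2 positive. SCARNA10, also named U85, which guides both a pseudouridine and a methylation of the U5 spliceosomal RNA, had 1753 and 1503 with CSH71 and 1904 and 1976 untreated. Both CSH71 values were below both untreated values, by -0.25 ± 0.18 on the log2 scale (interval -0.67 to 0.16). SCARNA12, also named U89, had 3537 and 2794 with CSH71 and 3235 and 3581 untreated, a difference of -0.11 ± 0.19 with overlap.

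SCARNA5 and SCARNA6, also named U87 and U88, lie within the same gene, ATG16L1. SCARNA5 had 379 and 402 with CSH71 and 398 and 373 untreated, a difference of 0.02 ± 0.17. SCARNA6 had 444 and 249 with CSH71 and 268 and 304 untreated, a difference of 0.21 ± 0.27. The positive value of SCARNA6 came from CSH71 replicate 1: without that array it was -0.19, and the gap of 0.80 between the CSH71 replicates was the largest replicate gap among the members.

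The 5 members with a C/D box alone had a median of -0.25, with 3 negative and 2 positive. That median is the value of SCARNA9L, which was 0.02 without untreated replicate 2. SCARNA9 and SCARNA2 carry paired guides for methylation of U2. SCARNA9 had 279 and 338 with CSH71 and 372 and 410.2 untreated, a difference of -0.33 ± 0.18 (interval -0.76 to 0.10). SCARNA2 had 352 and 289.8 with CSH71 and 376 and 396 untreated, a difference of -0.26 ± 0.18. For both, all CSH71 values were below all untreated values, and neither passed the test (limma adjusted p = 0.999).

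SCARNA9L carries the name of a SCARNA9-like copy, and cross-hybridisation between their probe sets was not tested. It had 266 and 270.9 with CSH71 and 264 and 391 untreated. Its difference was -0.25 ± 0.22, and untreated replicate 2 stood above the other arrays: without it the difference was 0.02. SCARNA7, also named U90, a guide for methylation of the U1 spliceosomal RNA, went the other way, with 910.2 and 952 with CSH71 and 855 and 818 untreated. Its groups did not overlap and its replicates lay within 0.06 of each other in each group, with a difference of 0.15 ± 0.17. SCARNA17, also named U91, a guide for U4, had 199.7 and 228 with CSH71 and 172 and 253 untreated, so the untreated values lay outside the treated ones (0.03 ± 0.22).

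Replicate arrays differed from each other by more than the groups did for most members. The median absolute gap between replicates was 0.25 with CSH71 and 0.20 untreated on the log2 scale, where the median absolute difference between groups was 0.13. Over all genes these medians were 0.19, 0.22 and 0.14. A gap is between single arrays and a group difference between means of arrays, so gaps are wider even without a treatment effect. CSH71 replicate 1 was above CSH71 replicate 2 for 15 of the 23 members, and untreated replicate 2 was above untreated replicate 1 for 19. Among the 13 H/ACA members both counts were 11, while 1 of the 5 C/D members was higher on CSH71 replicate 1 than on replicate 2.

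This array pattern was also present outside the class. Of the 7442 genes brighter than the median gene, 67.1% were higher on CSH71 replicate 1 than on replicate 2 and 75.2% were higher on untreated replicate 2 than on replicate 1. Over all genes these shares were 52.9% for the CSH71 pair and 57.4% for the untreated pair, and over the 1098 microRNA genes 42.0% and 41.5% in the same order. Of the 23 members 18 were brighter than the median gene. The part of array intensity in the replicate gaps of the members was not tested. SCARNA3 was one of 4 members higher on untreated replicate 1 than on replicate 2, so its direction there was not that of most members.

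**Figure D4:**
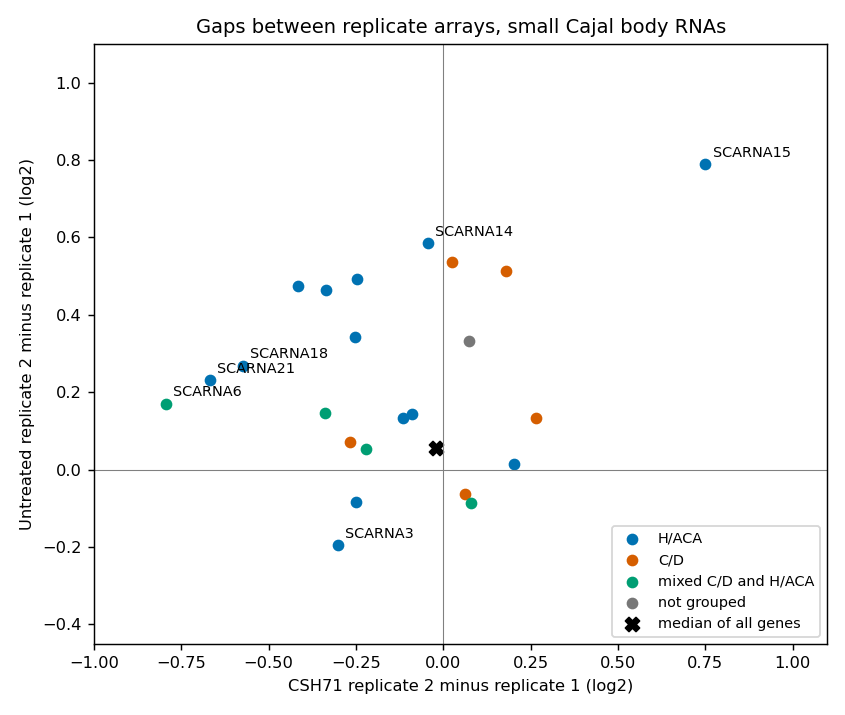
Gap between replicate arrays (replicate 2 minus replicate 1, log2) in CSH71-treated cells on the horizontal axis and in untreated cells on the vertical axis, 1 point per member, coloured by box class; the cross is the median of all genes. Most H/ACA points lie in the upper left, with SCARNA15 at 0.75 and 0.79 in the upper right and SCARNA6 farthest left at -0.80.

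Of the 23 members 22 lie within the span of another RefSeq gene, and SCARNA2 within none. Strand was not compared, and coordinates are not given because no build is named for the array. The genes that hold the members number 25, of which 12 were measured, and these hold 13 members. The gene holding SCARNA3 is COP1, which encodes a ubiquitin ligase and was not analysed here, so the SCARNA3 difference has no host value beside it. None of the 12 passed limma over all genes, 2 had an unadjusted p under 0.05 (ATG16L1 and SNHG20, where all genes gave 5.10%), and they ran from -0.23 to 0.67 with a median of -0.07.

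ATG16L1, an autophagy gene that holds SCARNA5 and SCARNA6, had 434 and 359 on the CSH71 arrays and 222 and 263 on the untreated arrays. Both CSH71 values were above both untreated values, with a difference of 0.67 ± 0.19 (limma adjusted p = 0.928) and an interval of 0.22 to 1.12. The intervals of SCARNA5 (-0.38 to 0.42) and SCARNA6 (-0.44 to 0.86) overlapped it, and the difference between the small RNAs and their host was not tested. The hosts of 3 other members were named by rule. CEP295, a centriole gene that holds SCARNA9, was at -0.16 ± 0.18. KHDC4, which holds SCARNA4, was at 0.13 ± 0.18, and KPNA4, a nuclear import gene that holds SCARNA7, at 0.09 ± 0.17. These have the sign of their member, and with 1 array left out KHDC4 came as low as 0.0151 and KPNA4 as low as 0.0070.

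Of the 13 pairs of a member and a measured host, 11 had the same sign, and their agreement was not tested. ATG16L1 entered the pairs of both SCARNA5 and SCARNA6. Among members with the sign of their host, SCARNA5, SCARNA6, SCARNA12, SCARNA16, SCARNA18 and SCARNA21 changed sign with 1 array left out. So did SCARNA14 and SCARNA15, whose signs were opposite to those of their hosts. Other hosts were picked out after their values were seen. FSD2 and TIPIN had the sign opposite to their member, and SNHG20 the same sign with a larger difference. FSD2, which holds SCARNA15, was at 0.34 ± 0.17 where SCARNA15 was at -0.36. SCARNA15 also lies within SNHG21, which was not analysed here, and without strand the host cannot be told from these spans. TIPIN, a replication fork gene that holds SCARNA14, was at -0.15 ± 0.18 where SCARNA14 was at 0.06. SNHG20, a host transcript that holds SCARNA16, had 752 and 699 with CSH71 and 542 and 549 untreated, without overlap. Its difference was 0.40 ± 0.17 (limma adjusted p = 0.973), where SCARNA16 was at 0.01. SCARNA16 also lies within SEC14L1, which was not analysed here.

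**Figure D5:**
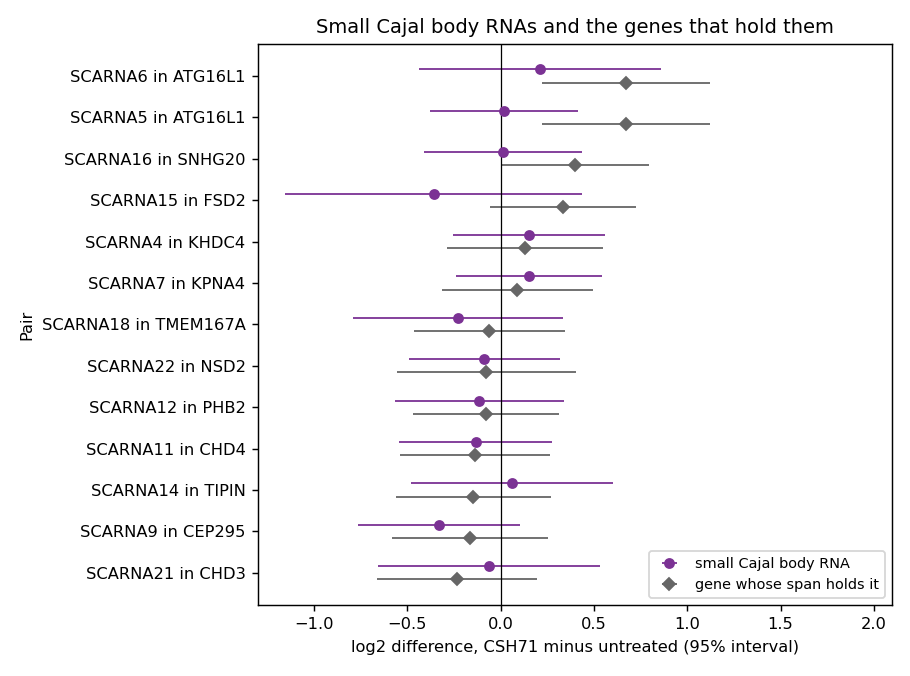
Log2 difference, CSH71 minus untreated, with 95% intervals, for 13 small Cajal body RNAs (circles) and a measured gene whose span holds each (diamonds). ATG16L1 lies at 0.67 against 0.21 for SCARNA6 and 0.02 for SCARNA5; in every pair shown the intervals of RNA and host overlap.

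The proteins that build H/ACA particles had small negative differences, none of which passed the test and 4 of which were positive without untreated replicate 2. Of 9 listed, 8 were measured and 0 were called (0 at an unadjusted p under 0.05), with differences from -0.28 to -0.03 and a median of -0.10. Untreated replicate 2 was the highest of the 4 arrays for all 8, and without that array 4 were negative and 4 positive, with a median of -0.0002. The same array was the highest for 4875 of all 14884 genes, and for 3465 of the 7442 brighter than the median gene. NHP2, a core protein of every H/ACA particle, had 992 and 868 with CSH71 and 1062 and 1197 untreated. Its arrays did not overlap, and the difference was -0.28 ± 0.18 (limma adjusted p = 0.999). NOP10 was at -0.16 ± 0.18 and GAR1 at -0.14 ± 0.20, and the dyskerin gene was not analysed here. Of the genes listed for processing of H/ACA RNA ends 3 of 4 were measured, with a median of 0.11, and of the C/D proteins 3 of 4, with a median of -0.12. In both lists limma called 0 genes (0 at an unadjusted p under 0.05).

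Of 20 genes listed for the Cajal body and the SMN complex, which loads Sm proteins on small nuclear RNAs, 15 were measured and 0 were called (0 at an unadjusted p under 0.05). Their median was -0.08, with 10 negative and 5 positive. COIL, which encodes the scaffold coilin, had 302 and 343 with CSH71 and 371 and 430.2 untreated, a difference of -0.30 ± 0.18. GEMIN5, which recognises small nuclear RNAs for the SMN complex, was at -0.39 ± 0.18 (limma adjusted p = 0.990). In both genes the CSH71 arrays lay below the untreated arrays. Over the 15 genes, 4 were lower and 0 higher without overlap, where 16.6% of all genes were lower and 15.0% higher. Untreated replicate 2 was the highest array for 11 of the 15, COIL and GEMIN5 included, beside 3465 of the 7442 genes brighter than the median gene.

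Telomerase RNA, TERC, carries an H/ACA domain and a Cajal body signal. It had 2173 and 2158 on the CSH71 arrays and 2073 and 2112 on the untreated arrays, so the groups did not overlap but differed by 0.05 ± 0.16, with an interval of -0.34 to 0.44. TERT, the protein subunit, was at -0.09 ± 0.18. Of the 7 other small RNAs listed, TERC included, 0 were called and 1 had an unadjusted p under 0.05. That was VTRNA1-2, a vault RNA, with 8.31 and 6.69 with CSH71 and 29.0 and 19.4 untreated, a difference of -0.76 ± 0.19 (limma adjusted p = 0.928). The 1098 microRNA genes had 0 calls (90 at an unadjusted p under 0.05, beside 759 of all 14884 genes or 5.10%). Their median difference was 0.08, where the small Cajal body RNAs had -0.09. The microRNA probe sets were dimmer, with a median of 5.60 on the log2(intensity + 16) scale against 8.28. The part of brightness in this contrast was not tested.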

How the data were processed

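Total RNA of 4 samples was measured on Affymetrix whole-transcript arrays. The table holds deposited intensities on a linear scale, produced with Affymetrix Expression Console per the submitters' processing notes. How it summarised, background-corrected and normalized them, and its version, is not given in the sources used here. Arrays have no read depth, so their number sets the precision.

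Of 53617 probe sets, 16098 had 1 symbol, 0 several and 37519 none in the platform annotation. All 16098 identifiers matched RefSeq (GRCh38.p14, used for names and for which genes hold others) and 0 symbols changed. A further choice concerned 779 genes read by more than 1 probe set, each of which kept its brightest by mean intensity. Values were taken as log2(intensity + 16), not normalized again, and fitted with limma 3.58.1 in R 4.3.3: 2 group means, default eBayes, 2-sided p-values adjusted by Benjamini-Hochberg over 14884 genes. The procedure was tested on simulated data with a common spread for all genes. The spread of the real genes varies, so that test does not show how reliable the calls are. Figures used matplotlib 3.10.9.

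Alternatives were the replicate block, pseudocounts of 1 and 64, quantile normalization, median centring, removal of the dimmest 40% of genes, 2 other variance priors, a mean over a gene's probe sets, a fit of all probe sets, and omission of each array. A crossed block was added after seeing the data. The correlation of same-numbered deviations was -0.294 over all genes and 0.249 over the members. Array-wide patterns enter both values, so they do not show whether same-numbered arrays were paired.

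Members and lists were chosen with earlier results of these data known. Box classes are a textbook grouping. The naming rule took called members, the 6 brightest, up to 6 in each direction without overlap and above the median gene, the dimmest, the member with the widest replicate gap, list genes by p, H/ACA proteins and hosts. Other members are given so that all 23 are accounted for, and were named after their values were seen, as was ATG16L1. The design foresaw hosts on the same strand, but the table gives no strand.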

Additional observations from a re-analysis of the deposited data

How the results depend on the processing

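All 15 alternatives gave SCARNA3 a negative difference, though several of them could not change its value. Its call, the only one among the members, was lost with a pseudocount of 1 (-2.10, adjusted p = 0.353), quantile normalization (-2.03, 0.153), all probe sets (-2.03, 0.232) and the crossed replicate block (-2.03, 0.236), which left 0 members called. Without 1 array it ran from -2.18 to -1.87, with 0 to 1 members called, and the class median from -0.19 to 0.0367, positive without untreated replicate 2 and without CSH71 replicate 2 (0.0046). Over all genes limma called 27 with the replicate block, where SCARNA3 kept its call, 33 with a pseudocount of 64, 11 without the dimmest 40% of genes, 143 with an intensity trend in the prior and 43 after median centring (32 higher, 11 lower, against 6 and 1). It called 0 with a pseudocount of 1 (768 at an unadjusted p under 0.05), quantile normalization (926), all probe sets (2367) and the crossed replicate block (1288), and 0 to 29 without 1 array. With the block, centring or trend the prior was infinitely strong, so no p rests on the spread of the gene itself. The variance was pooled over all genes with the block or centring, and followed intensity with the trend. In each of these the cause was not tested.

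After median centring SCARNA16 turned to -0.0312, SCARNA17 to -0.0163 and SCARNA5 to -0.0258. Leaving out 1 array turned the sign of 15 uncalled members, with ranges of -0.33 to 0.14 for SCARNA1, -0.28 to 0.0553 for SCARNA12, -0.23 to 0.35 for SCARNA14, -0.75 to 0.0367 for SCARNA15, -0.11 to 0.14 for SCARNA16, -0.23 to 0.28 for SCARNA17, -0.52 to 0.0582 for SCARNA18, -0.29 to 0.0494 for SCARNA20, -0.40 to 0.27 for SCARNA21, -0.0496 to 0.44 for SCARNA23, -0.19 to 0.14 for SCARNA27, -0.0251 to 0.0623 for SCARNA5, -0.19 to 0.61 for SCARNA6, -0.11 to 0.37 for SCARNA8 and -0.52 to 0.0212 for SCARNA9L, and of GAR1 (-0.32 to 0.0405). The signs of the other 8 members held in every alternative. SCARNA14, SCARNA15 and SCARNA18 were among the dimmest 40% and have no value there.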
